A study of Mus musculus with 60 samples.

Results

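The 10 astrocyte genes Gfap, Aqp4, Slc1a2, Slc1a3, Aldh1l1, Gja1, S100b, Slc6a11, Aldoc and Glul were followed across 60 brain RNA-Seq libraries. They were chosen by name as common markers of astrocytes, and all 10 were found among the 47597 gene entries of the tables. The libraries came from C57BL/6N mice aged 3 months and were labelled as cortex or striatum, in 10 groups of 6, with 3 labelled males and 3 labelled females in each. The Δ12 line carries an Htt allele made by gene editing that lacks part of exon 12, and its groups are +/+, Δ12/+ and Δ12/Δ12. The KO line descends from 1 founder in which the edit did not come out as designed, so that its Htt allele has lost a splice donor, and its groups are +/+ and KO/+. Each line has its own +/+ mice. The mice were untreated as far as the labels tell, and each labelled mouse has 1 library labelled cortex and 1 labelled striatum.

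Astrocytes clear glutamate and GABA from the synaptic space, return them to neurons as glutamine, buffer potassium and water at the endfeet that wrap blood vessels, and are joined to each other by gap junctions. In injury and disease they become reactive, and Gfap, their intermediate filament protein, is the usual marker of that state. Astrocytes also differ between brain regions. The question here is how these genes differed between the tissues and between the Htt genotypes.

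Several labels went against the data, so the tissue was read from expression. A library was taken as cortex-like where Slc17a7, the vesicular glutamate transporter of cortical excitatory neurons, exceeded 100 FPKM, and as striatum-like otherwise. FPKM is the number of sequenced fragments of a gene scaled to its transcript length and to the depth of the library. Slc17a7 ran from 121 to 234 FPKM in the 30 cortex-like libraries and from 4.81 to 64.8 FPKM in the 30 striatum-like libraries. Drd2, a dopamine receptor of striatal neurons that the rule did not use, ran from 0 to 18.5 FPKM and from 29.4 to 61.8 FPKM. This tissue matched the labelled tissue in 30 of 60 libraries, and the sex-linked transcripts Xist and Ddx3y matched the labelled sex in 30 of 60. The cortex-like libraries were all 12 labelled +/+ of the Δ12 line, all 12 labelled Δ12/+ and the 6 labelled male Δ12/Δ12. The striatum-like libraries were all 12 labelled +/+ of the KO line, all 12 labelled KO/+ and the 6 labelled female Δ12/Δ12. Libraries are named here by their labels throughout. Levels are given as rescaled FPKM, in which each library is divided by its median ratio to the others. Htt itself, the targeted gene, averaged 16.7 ± 2.5 rescaled FPKM in KO/+ and 17.8 ± 1.29 in the +/+ of that line (SD, n = 12 each). It ran from 12.7 to 20.0 and from 16.6 to 20.7, and the difference did not pass the test (limma, adjusted p = 0.385). This test is a linear model fitted to every gene, and p is adjusted over all genes by Benjamini-Hochberg with a threshold of 0.05. Some KO/+ libraries, at 12.7, 13.7, 13.9, 15.4, 15.5 and 15.7, lay below every +/+ library. The other KO/+ libraries, from 18.2 to 20.0, lay within the +/+ range. The Htt level therefore did not separate all libraries by the KO/+ label, and every KO/+ result below goes by that label. The estimated depth was 12700000 to 19400000 fragments in cortex-like and 16400000 to 27500000 in striatum-like libraries.

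The promoters of Slc6a11, Slc1a3 and Gfap are shown first, because Slc6a11 and Slc1a3 differed in opposite directions between the tissues and Gfap is the reactive marker. Each window runs from 250 bases before to 50 bases after the RefSeq gene start in GRCm38.p6, written 5′ to 3′ on the strand of the gene. Capitals mark matches on either strand to TTCNNNGAA, the letters bound by STAT factors, or to TTGGC, a half-site of nuclear factor I. Both factor families are known to act on astrocyte genes.
Slc6a11, chr6:114130991-114131290, plus strand: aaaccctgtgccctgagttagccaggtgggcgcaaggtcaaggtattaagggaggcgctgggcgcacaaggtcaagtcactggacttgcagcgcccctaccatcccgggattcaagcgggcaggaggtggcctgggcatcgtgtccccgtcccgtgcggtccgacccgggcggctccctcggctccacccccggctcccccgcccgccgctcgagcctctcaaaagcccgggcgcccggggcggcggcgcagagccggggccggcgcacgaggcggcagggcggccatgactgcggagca
Slc1a3, chr15:8710758-8711057, minus strand: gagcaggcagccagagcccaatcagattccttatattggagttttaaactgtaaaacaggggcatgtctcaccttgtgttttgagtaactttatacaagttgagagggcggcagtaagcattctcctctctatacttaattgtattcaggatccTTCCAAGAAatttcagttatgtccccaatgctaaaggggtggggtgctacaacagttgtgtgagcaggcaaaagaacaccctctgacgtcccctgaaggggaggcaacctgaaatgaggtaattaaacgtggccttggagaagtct
Gfap, chr11:102897151-102897450, minus strand: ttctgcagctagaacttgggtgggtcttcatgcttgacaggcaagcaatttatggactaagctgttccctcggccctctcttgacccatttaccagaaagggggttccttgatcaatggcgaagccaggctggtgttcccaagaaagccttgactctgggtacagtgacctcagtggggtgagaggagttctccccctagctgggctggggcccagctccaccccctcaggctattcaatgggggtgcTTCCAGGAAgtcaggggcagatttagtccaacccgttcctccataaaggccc
The Slc1a3 and Gfap windows each held 1 match to TTCNNNGAA, and no window of these 3 held TTGGC. The Slc6a11 window held neither and is therefore in lower case throughout. Among the 10 promoters that RefSeq lists for 9 of the genes, 3 held TTCNNNGAA, those of Gfap, Slc1a3 and 1 of Aldoc, against 8.3% of all 32851 promoters. TTGGC stood in 4 of the 10, against 46.7% of all, and the TATA letters TATAAA in 1 of the 10, that of Slc1a3, against 13.6%. Matches were counted on both strands, none of the 3 motifs contains another, and a match describes letters and not a site.

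The genes lie on several chromosomes (coordinates as in the tables, GRCm38). Slc6a11 spans chromosome 6 from 114131241 to 114249952, and Aldh1l1 lies on chromosome 6 from 90486427 to 90600203. Gfap spans 102887336 to 102900912 on chromosome 11, where Aldoc also lies, from 78322968 to 78327781. Gja1 spans 56377300 to 56390419 and S100b spans 76253853 to 76261159 on chromosome 10. Slc1a2 lies on chromosome 2 from 102658659 to 102790784, Slc1a3 on chromosome 15 from 8634124 to 8710764, and Glul on chromosome 1 from 153899944 to 153909723. The values cover whole genes. The interval that stands beside each FPKM in the tables had a median half-width of 4.41% of the value for Aldoc, the narrowest of the 10, and of 18.8% for Aldh1l1, the widest.

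In cortex-like libraries the glutamate transporter Slc1a2 (GLT-1) was the highest of the 10, with a median of 325 rescaled FPKM and a range of 221 to 625.3. The glycolytic enzyme Aldoc and glutamine synthetase, Glul, followed with medians of 189 and 161, and their ranges overlapped, Aldoc being the higher in 22 of 30 libraries. Slc1a3 (GLAST), the other glutamate transporter, had a median of 79.6 and a range that overlapped neither neighbour in this order. Gja1, the gap junction protein connexin 43, Gfap and the calcium-binding protein S100b had medians of 24.9, 23.0 and 21.8, and these 3 could not be ordered beyond their spread. The folate enzyme Aldh1l1 at 10.8, the water channel Aqp4 at 10.3 and the GABA transporter Slc6a11 (GAT-3) at 8.19 closed the order.

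In striatum-like libraries Slc1a2 again led, with a median of 406 and a range of 323 to 473. Glul came next at 358, within the range of Slc1a2 but above Aldoc, at 193, in 30 of 30 libraries. Slc1a3 stood at 56.5, below Aldoc and above S100b in every library. S100b at 35.0, Gja1 at 32.9, Gfap at 30.0 and Slc6a11 at 28.0 overlapped their neighbours. Aqp4 at 12.3 and Aldh1l1 at 9.24 were the lowest, Aqp4 being the higher in 26 of 30 libraries.

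**Figure D1:**
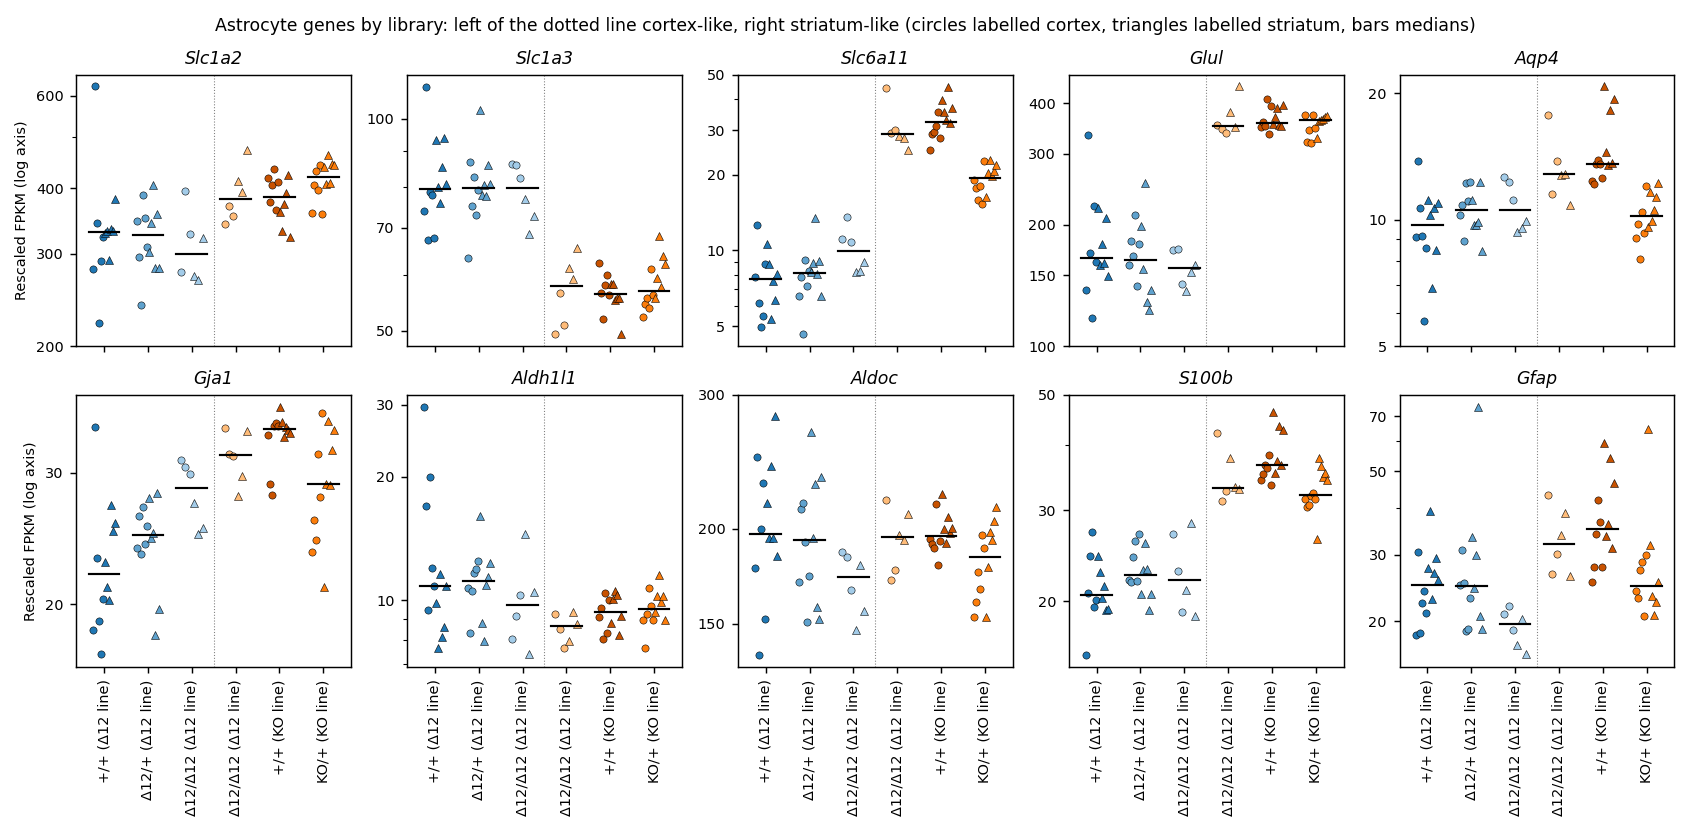
Rescaled FPKM of each of the 10 genes (log axis) in each of the 60 libraries, by tissue read from expression and labelled genotype; circles are libraries labelled cortex, triangles those labelled striatum, and bars are medians. Slc6a11 lies between 4.65 and 13.6 in cortex-like and between 15.3 and 44.7 in striatum-like libraries, and within the latter the 12 libraries labelled KO/+ lie below the 12 +/+ of their line.

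Slc6a11, which takes GABA up into astrocytes, differed most between the tissues on rescaled FPKM. After quantile normalization, which gives every library the same distribution of values, its log2 ratio of −1.90 was smaller than the −3.49 of Glul and the −2.87 of Slc1a2. Its level ran from 4.65 through a median of 8.19 to 13.6 rescaled FPKM in cortex-like libraries, and from 15.3 through 28.0 to 44.7 in striatum-like libraries. The ranges did not overlap and the median was 3.42 times higher in striatum-like libraries (log2 ratio of cortex-like over striatum-like medians −1.71). It was the only 1 of the 10 genes without overlap. In bulk tissue, fewer cells of a type and less RNA per cell cannot be told apart, which holds for every level given here. Among all 16076 genes with a mean of at least 0.5 rescaled FPKM, 19.3% lay higher in every striatum-like than in every cortex-like library and 16.9% lay the other way, so such separation was common.

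Glul, which turns glutamate into glutamine, had a median of 161 (118 to 335) in cortex-like and of 358 (319 to 441) in striatum-like libraries, 2.22 times higher in the latter. The ranges met through the library labelled cortex Δ12-line +/+ male 2, at 335, which was also the highest of the cortex-like libraries in Slc1a2, Slc1a3, Gja1 and Aqp4. S100b had medians of 21.8 (15.8 to 28.4) and 35.0 (26.3 to 46.4), a log2 ratio of −0.67. Gfap had medians of 23.0 (16.3 to 73.9) and 30.0 (20.6 to 64.7), a log2 ratio of −0.38. For Slc6a11, Glul and S100b the striatum-like median was the higher one under every scaling, but the size of the ratio moved. On FPKM as deposited the ratios were −1.36, −0.78 and −0.35, and after quantile normalization −1.90, −3.49 and −1.02. The ratio of Gfap turned to 0.039 on FPKM as deposited and was −0.82 after quantile normalization.

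Slc1a3 went the other way. Its median was 79.6 (63.5 to 111) in cortex-like and 56.5 (49.5 to 68.2) in striatum-like libraries, a log2 ratio of 0.49, which became 0.79 on FPKM as deposited and reversed to −0.33 after quantile normalization. Aldh1l1 had medians of 10.8 (7.37 to 29.5) and 9.24 (7.63 to 11.5), a log2 ratio of 0.21. Over the other scalings and the split by labelled tissue that ratio ran from −0.038 to 0.50. The log2 ratio was −0.39 for Gja1, −0.32 for Slc1a2, −0.25 for Aqp4 and −0.031 for Aldoc. These 4 ratios turned to 0.0075, 0.051, 0.095 and 0.34 on FPKM as deposited, and after quantile normalization they were −0.80, −2.87, −0.33 and −1.81, so their direction and size depend on the scaling. The median ratio over the 10 genes was −0.35, against −0.025 over all genes. All of this is a description of 30 and 30 libraries with no test, since neither line has +/+ libraries in both tissues.

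Libraries labelled Δ12/Δ12 were the only group present in both tissues, 6 labelled males as cortex-like and 6 labelled females as striatum-like. Among these, Slc6a11 had a median of 9.91 (8.19 to 13.6) in cortex-like and of 29.0 (25.1 to 44.3) in striatum-like libraries. Glul had 156 (137 to 174) and 351 (338 to 441), S100b 22.0 (18.8 to 28.4) and 33.0 (31.2 to 42.1), Gfap 19.6 (16.3 to 21.9) and 32.0 (26.3 to 43.2), and Slc1a3 79.7 (68.5 to 86.3) and 57.9 (49.5 to 65.6). The ranges of these 5 genes did not overlap within the group, 4 of them higher in striatum-like and Slc1a3 higher in cortex-like libraries. Among all 16076 genes 31.8% lay higher in every striatum-like and 27.7% in every cortex-like library of this group, and the 4 and 1 of the 10 genes stand beside these shares. The tissue goes with the labelled sex here, and this split was added after the data were seen.

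Other astrocyte genes were read from a list of 30, of which 6 lay higher in every striatum-like library, 1 lay lower and 23 overlapped, with a median log2 ratio of −0.40. The shares of all genes were 19.3% and 16.9%, so the list stood near or below the background. Kcnj10, the potassium channel Kir4.1, had medians of 3.20 (1.91 to 11.0) in cortex-like and 30.0 (21.4 to 41.4) in striatum-like libraries, 9.37 times higher in the latter. Atp1b2, a sodium pump subunit, Hepacam, an adhesion protein of astrocytes, and Slc4a4, a bicarbonate transporter, were 5.22, 5.49 and 3.78 times higher, none overlapping. Mt3, a metallothionein, went the other way, with medians of 1366 and 268, 5.09 times higher in cortex-like libraries. Agt, the precursor of angiotensin, was 3.03 times higher in striatum-like libraries with overlapping ranges.

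Of the reactive astrocyte genes, 24 of 37 reached a mean of 0.5 rescaled FPKM, and 5 of these lay higher in every cortex-like library and 3 in every striatum-like library. The shares of all genes were 16.9% and 19.3%, so these counts stood near the background. H2-T23, S100a10, Ptgs2, Sphk1 and Tm4sf1 were 7.38, 6.32, 13.1, 15.4 and 4.96 times higher in cortex-like libraries. Stat3, a transcription factor of the reactive response, was 3.16 times higher in striatum-like libraries, with overlap. The reactive marker Lcn2 had a median of 0 in all 6 groups.

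Transcript length moved with the tissue difference. Across the 15493 genes with a length in GENCODE M21, the log2 ratio fell with the length of the longest annotated transcript (Spearman's rho −0.38 across genes, which are not independent replicates). The median ratio was 0.44 for genes under 1000 bases, −0.51 for genes of 4000 to 8000 bases and −0.82 for genes of 8000 bases and over. Mt3 has 536 bases. Kcnj10, Slc6a11 and Slc1a3 have 5407, 4132 and 4435 bases, and of these Slc1a3 alone had the higher median in cortex-like libraries. The 10 largest entries of a table held 61.8% to 92.3% of the summed FPKM in cortex-like and 28.3% to 86.6% in striatum-like libraries. The part of length in the ratios was not tested, and for the +/+ and heterozygous libraries tissue and line cannot be told apart.

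Markers of other cells moved with the tissue as well. All 8 striatal neuron markers, 4 of 5 oligodendrocyte markers and 3 of 4 markers of oligodendrocyte precursors lay higher in every striatum-like library, beside 19.3% of all genes. Of the 5 cortical neuron markers other than Slc17a7, which the rule used, Emx1 alone lay higher in every cortex-like library, beside 16.9% of all genes.

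**Figure D2:**
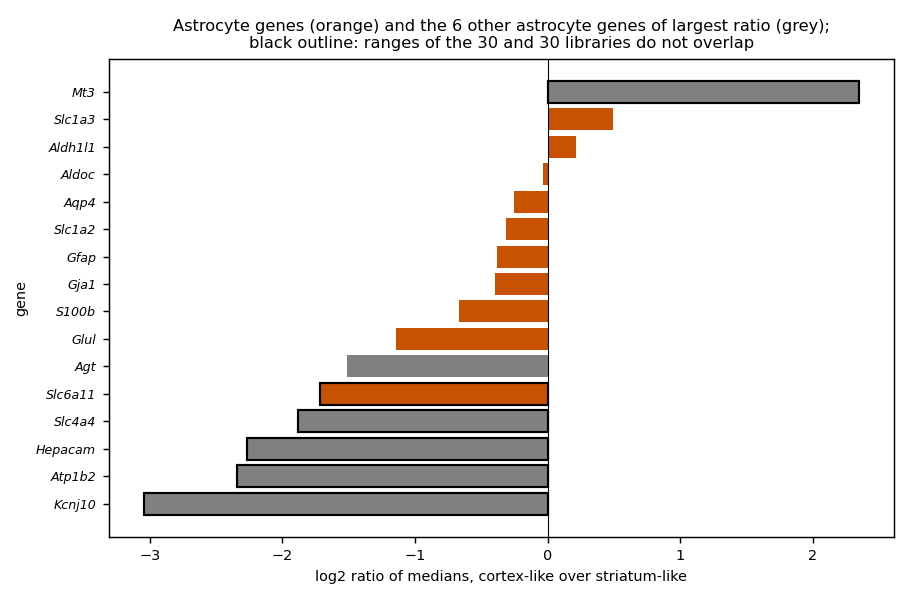
Log2 ratio of the median of 30 cortex-like over that of 30 striatum-like libraries for the 10 genes (orange) and the 6 other astrocyte genes with the largest ratio in either direction (grey), with a black outline where the ranges do not overlap. The ratio runs from −3.04 for Kcnj10 to 2.35 for Mt3, and 8 of the 10 genes lie below 0, of which Gfap, Gja1, Slc1a2, Aqp4 and Aldoc lie above 0 on FPKM as deposited.

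The effect of genotype was tested within a tissue. The largest differences among the 10 genes were between libraries labelled KO/+ and +/+ of the KO line, 12 against 12 striatum-like libraries. Slc6a11, Aqp4, S100b and Gja1 were lower in KO/+ and passed the test, and none of the 10 passed as higher, except that Slc1a2 did after quantile normalization (0.30, limma, adjusted p = 0.0438). In the background 1451 of 15917 genes passed (9.12%), 566 higher (3.56%) and 885 lower (5.56%), so 4 of the 10 genes called lower stand beside 5.56% of all genes. Before rescaling the split was 48 higher and 1472 lower, since the median estimate over all genes was then −0.10 instead of 0.016.

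Slc6a11 ran from 15.3 through a median of 19.5 to 23.0 rescaled FPKM in libraries labelled KO/+, and from 25.1 through 32.5 to 44.7 in +/+. Every KO/+ library was thus below every +/+ library, which held for 0.132% of all genes in this direction and for 0.0188% in the other. The estimate was a log2 fold change of −0.77 ± 0.070 (SE; limma, adjusted p = 1.6e-06). The 6 striatum-like libraries labelled Δ12/Δ12, which entered no comparison, ran from 25.1 through 29.0 to 44.3, within the range of the +/+ libraries but for 1 value at its lower edge. The estimate was −0.70 in libraries labelled cortex (limma, adjusted p = 0.0294) and −0.84 in those labelled striatum (limma, adjusted p = 0.00162).

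Aqp4, the water channel of the endfeet, ran from 8.09 through 10.2 to 12.3 in KO/+ and from 12.2 through 13.6 to 20.8 in +/+. The ranges met only between 12.2 and 12.3, and the log2 fold change was −0.49 ± 0.070 (SE; limma, adjusted p = 0.00018). S100b had a mean of 32.8 ± 3.13 (SD, n = 12) in KO/+ and 38.0 ± 4.06 (SD, n = 12) in +/+, a log2 fold change of −0.21 (limma, adjusted p = 0.0148). Gja1 had means of 29.2 ± 4.85 and 33.6 ± 2.53 (SD, n = 12 each), a log2 fold change of −0.21 that barely passed (limma, adjusted p = 0.0483). The Gja1 call was lost in 17 of the 24 fits that left out 1 library, with adjusted p of up to 0.0881. Within each labelled tissue neither S100b nor Gja1 passed, and Aqp4 passed in libraries labelled striatum (−0.58, limma, adjusted p = 0.0167) but not in those labelled cortex (−0.40, adjusted p = 0.1).

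Gfap, the reactive marker, ran from 20.6 through 24.7 to 64.7 in KO/+ and from 25.4 through 35.1 to 59.5 in +/+. The groups overlapped, and the log2 fold change of −0.43 ± 0.16 (SE) did not pass the test (limma, adjusted p = 0.0876). Without the library labelled striatum KO-line KO/+ male 1, which held the highest value of 64.7, the estimate was −0.54 and passed (adjusted p = 0.0105). The same library was the lowest of the KO/+ libraries in S100b, Gja1 and Aldoc and the highest in Vim. The other 5 genes did not pass either. Aldoc had an estimate of −0.13, Glul of −0.060, Slc1a2 of 0.12, Slc1a3 of 0.046 and Aldh1l1 of 0.032, with standard errors from 0.040 to 0.058.

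The wider lists moved alongside. Of the 30 other astrocyte genes 10 were called, all lower, beside 5.56% of all genes called lower. Their median estimate was −0.11 against 0.016 over all genes. Agt ran from 6.03 through 8.44 to 11.1 in KO/+ and from 11.3 through 19.0 to 27.1 in +/+, without overlap, a log2 fold change of −1.15 (limma, adjusted p = 2.9e-06). Kcnj10, Atp1b2 and Itih3, an extracellular matrix protein, followed with −0.36, −0.28 and −0.61. Hepacam, Slc14a1, Apoe, Fgfr3 and Acsbg1 were also among those called. Of the 22 reactive genes tested only Serpina3n, a protease inhibitor, was called, lower by a log2 fold change of −0.38 (limma, adjusted p = 0.00595), and Vim, a filament protein, had 0.16 and did not pass. That 1 of 22 stands near the 5.56% of all genes called lower.

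**Figure D3:**
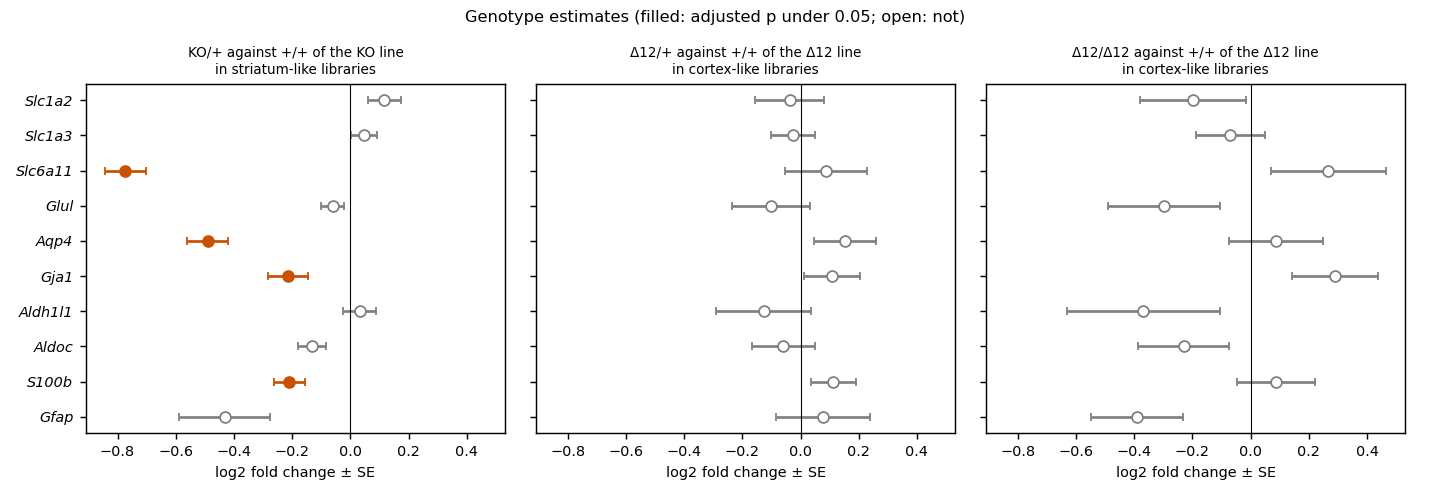
Log2 fold change with its standard error for each of the 10 genes in the 3 genotype comparisons, filled where the adjusted p was under 0.05. Filled points are the 4 genes lower in KO/+, and no gene is filled in the Δ12 comparisons.

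Markers of other cells moved between the same groups. All 5 oligodendrocyte markers tested (Cnp, Mag, Mog and Mobp among them) and all 4 precursor markers (Olig1, Olig2, Cspg4 and Pdgfra) were called lower in KO/+. Over all genes 5.56% were called lower and 3.56% higher, which is the background for every count in this paragraph. The summed oligodendrocyte markers ran from 740 to 1024 in KO/+ and from 839 to 1216 in +/+, and the summed precursor markers from 46.5 to 55.7 and from 55.1 to 68.7. Of 8 striatal neuron markers 3 were called, all higher (Rgs9, Pde10a and Penk), and their sums ran from 1363 to 2277 in KO/+ and from 1144 to 1746 in +/+. Of 5 cortical neuron markers tested 2 were called, both higher (Neurod6 among them), with sums from 8.51 to 85.4 and from 8.80 to 35.8. Of 4 pan-neuron markers Stmn2 was called, lower, with an estimate of −0.32. All 4 ependymal markers had estimates above 0 (median 0.32) and Tmem212 was called, at 0.73, while all 4 choroid plexus markers had estimates above 0 (median 0.59) and none was called. The summed choroid plexus markers ran from 179 through 1255 to 2060 in KO/+ and from 41.1 through 693 to 1637 in +/+. These ranges overlap widely, and the part of these cells in the values of the 10 genes was not tested. No microglia or endothelial marker was called. With log2 of the summed oligodendrocyte markers as a further covariate, added after the data were seen, no gene passed (limma; 1583 of 15917 had an unadjusted p under 0.05), and the estimates were −0.47 for Slc6a11 (adjusted p = 0.199) and −0.21 for Aqp4 (adjusted p = 0.495). That sum and the genotype label move together, so they cannot be told apart. With log2 of Slc17a7 as the covariate instead, also added later, 1730 genes passed and the estimate for Slc6a11 was −0.77.

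**Figure D4:**
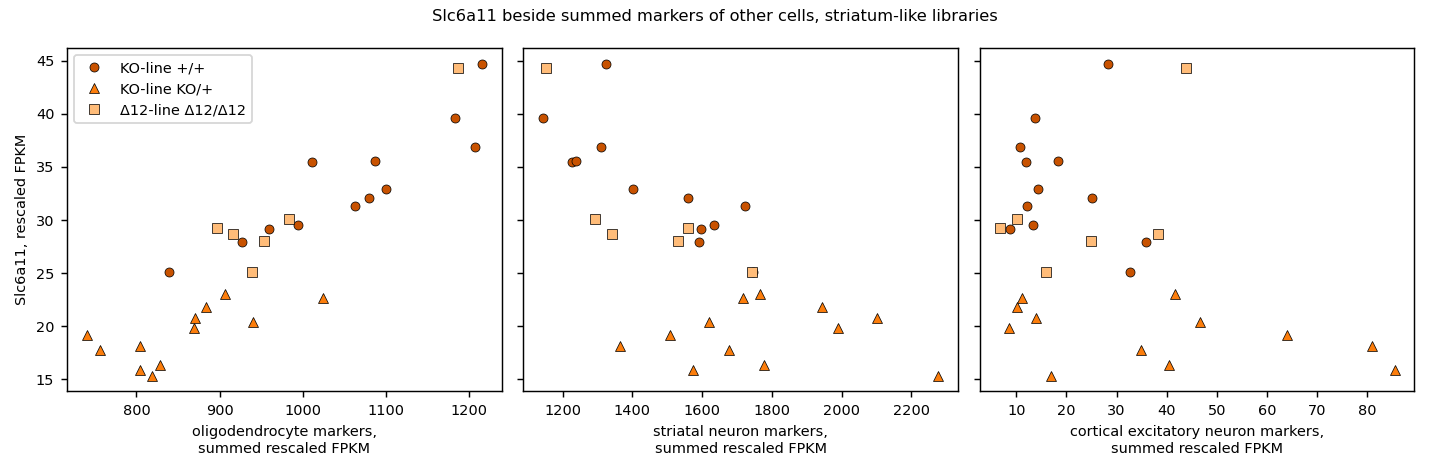
Slc6a11 against the summed rescaled FPKM of oligodendrocyte, striatal neuron and cortical neuron markers in the 30 striatum-like libraries, by labelled genotype. The KO/+ libraries reach at most 23.0 for Slc6a11 and 1024 for the oligodendrocyte sum, where +/+ libraries reach 44.7 and 1216.

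In cortex-like libraries labelled Δ12/+ against +/+ of the Δ12 line, 12 against 12, none of the 10 genes passed the test and none had an unadjusted p under 0.05. Xist exceeded Ddx3y in 2 of the 12 Δ12/+ libraries and in 8 of the 12 +/+ libraries. The sex read from transcripts thus goes in part with the genotype label, and the fit used the labelled sex. In the background 0 of 15173 genes passed (0%, limma), with 1108 at an unadjusted p under 0.05, and no gene's groups were without overlap (0%). The estimates of the 10 genes lay between −0.13 for Aldh1l1 and 0.15 for Aqp4, with standard errors from 0.076 to 0.16. Gfap ran from 18.8 through 24.7 to 73.9 in Δ12/+ and from 18.4 through 24.9 to 39.3 in +/+, a log2 fold change of 0.077 ± 0.16 (SE). That turned to −0.056 without the library labelled striatum Δ12-line Δ12/+ female 1, at 73.9, in which Serpina3n, Vim, Mt1 and Mt2 were also the highest of the Δ12/+ libraries. Slc6a11 ran from 4.65 through 8.14 to 13.5 in Δ12/+ and from 4.97 through 7.72 to 12.6 in +/+. In the wider lists 0 of 30 other astrocyte genes and 0 of 21 reactive genes passed.

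In the 6 cortex-like libraries labelled Δ12/Δ12, all of them labelled male, against the 12 +/+, again none of the 10 genes passed. With labelled sex in the model, each estimate sets these 6 against the +/+ libraries labelled male. The +/+ libraries labelled female enter only through the sex and tissue terms and the spread. Ranges and means of the +/+ of this line, here and in the next paragraph, cover all 12. The background was 10 of 15230 genes (0.0657%), 3 higher (0.0197%) and 7 lower (0.046%), and the groups did not overlap in 0.0854% with Δ12/Δ12 above and in 0.105% with Δ12/Δ12 below. Gfap ran from 16.3 through 19.6 to 21.9 in Δ12/Δ12 and from 18.4 through 24.9 to 39.3 in +/+. Its log2 fold change was −0.39 ± 0.16 (SE; limma, adjusted p = 0.406, unadjusted p = 0.0244), the only 1 of the 10 with an unadjusted p under 0.05. Gja1 had means of 28.2 ± 2.75 (SD, n = 6) and 22.9 ± 4.78 (SD, n = 12), and Slc6a11 had means of 10.2 ± 2.10 and 7.72 ± 2.29, neither of which passed. The estimates ran from −0.39 for Gfap to 0.29 for Gja1, with standard errors from 0.12 to 0.26.

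Among the other astrocyte genes Mt2, a metallothionein that binds zinc, was called higher in Δ12/Δ12. It ran from 73.4 through 91.3 to 109 in Δ12/Δ12 and from 25.3 through 47.3 to 58.1 in +/+, without overlap, a log2 fold change of 1.06 ± 0.18 (SE; limma, adjusted p = 0.0401). The call was lost in 15 of the 18 fits without 1 library (adjusted p of up to 0.107) and within each labelled tissue, while the estimate stayed between 0.78 and 1.34 in the other settings. In libraries labelled Δ12/+ Mt2 ran from 43.7 through 63.6 to 111, and the estimate of 0.53 did not pass (limma, adjusted p = 0.341). Its neighbour Mt1 had an estimate of 0.51 in Δ12/Δ12 and did not pass. In the 6 striatum-like Δ12/Δ12 libraries Mt2 ran from 60.1 to 90.3, beside 46.4 to 90.3 in the +/+ of the KO line. The endothelial marker Cldn5 was called lower in Δ12/Δ12, with an estimate of −0.79 (limma, adjusted p = 0.04), and the summed endothelial markers ran from 25.6 to 35.4 in Δ12/Δ12 and from 29.2 to 56.9 in +/+; their part in the values of the 10 genes was not tested.

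The striatum-like libraries labelled Δ12/Δ12 have no +/+ of their line in that tissue, so they are described only. Beside the +/+ of the KO line, their medians were 32.0 against 35.1 for Gfap, 12.8 against 13.6 for Aqp4, 31.7 against 34.4 for Gja1, 33.0 against 36.6 for S100b and 351 against 358 for Glul. Every range overlapped that of the +/+ libraries.

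Whether the genotype effect differed between labelled tissues or labelled sexes was tested with an interaction term. Each fit holds libraries of a single tissue by expression, and both labels matched the expression in only 30 of 60 libraries. The terms therefore compare labels and cannot show a difference between tissues or sexes. No gene passed in any of these fits (limma), and at an unadjusted p under 0.05 stood 1931 and 1202 genes for KO/+, 912 and 1331 for Δ12/+, for tissue and sex in turn, and 563 for Δ12/Δ12 and tissue. For Slc6a11 the KO/+ effect in libraries labelled striatum minus that in libraries labelled cortex was −0.14 ± 0.14 on the log2 scale (SE; limma, adjusted p = 0.708).

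The 10 genes did not rise and fall as 1 group across libraries. Over the 45 pairs of genes, Pearson's r of the log2 levels had a median of 0.11 in cortex-like and 0.21 in striatum-like libraries, and ranged from −0.39 to 0.76 and from −0.57 to 0.91. On FPKM as deposited, where a library's scale is shared by all genes, the medians were 0.42 and 0.65. Since the striatum-like libraries fall apart by genotype in Slc6a11, the pairs were also read within each labelled genotype with 12 libraries, 180 pairs in all, of which 8 had an adjusted permutation p under 0.05 for r. By the labels the 12 libraries come from 6 mice, so they cannot be taken as fully independent, although the data contradict these labels in part.

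In the 12 +/+ libraries of the KO line, Gfap, Aqp4, S100b and Slc6a11 varied together, and all 6 pairs among them were among the 8. The libraries labelled striatum male 1, female 1 and female 3 held the highest values of each of these genes (Gfap 46.5 to 59.5, Slc6a11 36.9 to 44.7). They also held the highest summed oligodendrocyte markers of the group (1183 to 1216). Leaving out 2 libraries keeps at least 1 of them, and the part of other cells in these relations was not tested. Gfap and Aqp4 had r = 0.92 (rho 0.83, permutation adjusted p = 0.0054 and 0.0355), and r was 0.81 without the 2 libraries farthest from the median. Gfap and Slc6a11 had r = 0.88 (rho 0.87, permutation adjusted p = 0.0076 and 0.0212) and 0.79 without those 2 libraries. Aqp4 and Slc6a11 had r = 0.82 (rho 0.82, permutation adjusted p = 0.0114 and 0.0386) and 0.91 without them. In the 12 KO/+ libraries Gfap and Slc6a11 had r = −0.22 and Gfap and Aqp4 had r = −0.0043, neither passing, and without the 2 farthest libraries r was 0.19 and 0.18. Over all 12 of them Aqp4 and Slc6a11 had r = 0.74 (permutation adjusted p = 0.0764). The difference between these correlations was not tested. The pair of the KO/+ libraries that passed was Slc1a3 and Aldoc, with r = 0.81 (rho 0.90, permutation adjusted p = 0.0326 and 0.0096), and 0.85 without the 2 farthest libraries. In cortex-like +/+ libraries the pair that passed was Slc1a2 and Gja1, with r = 0.86 (rho 0.91, permutation adjusted p = 0.0116 and 0.0096), and 0.81 without the 2 farthest libraries.

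**Figure D5:**
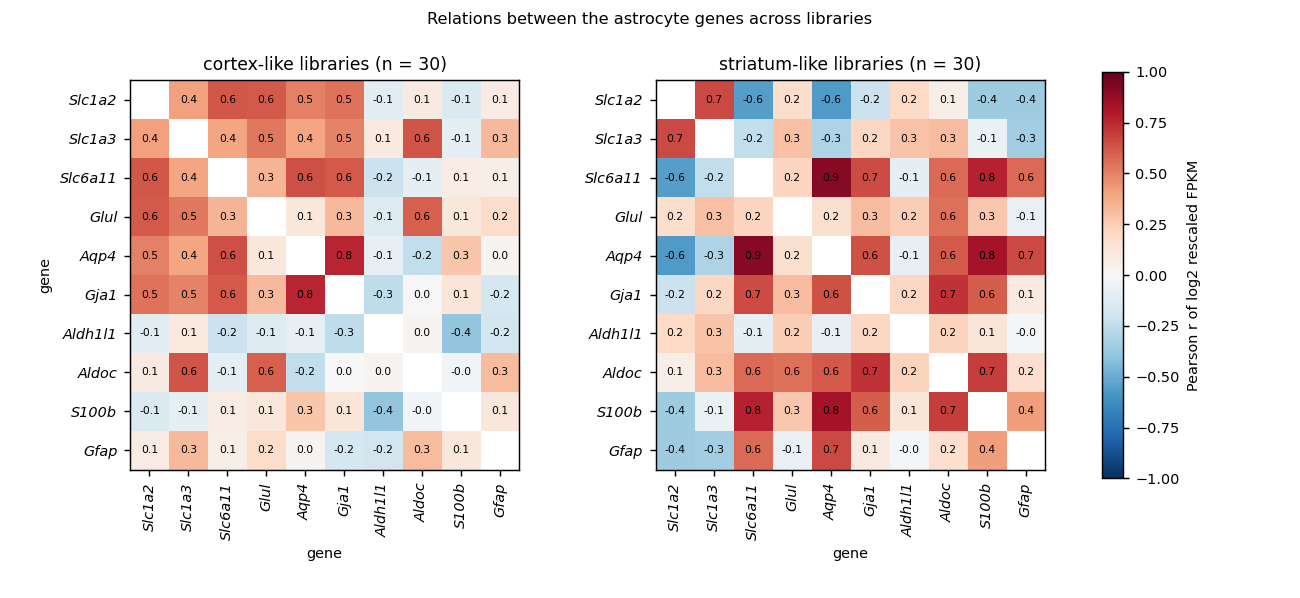
Pearson's r of log2 rescaled FPKM for each pair of the 10 genes over 30 cortex-like (left) and 30 striatum-like libraries (right), red for positive and blue for negative. In striatum-like libraries Slc6a11, Aqp4 and S100b form the block of highest values, up to 0.91, and Slc1a2 has negative r with Slc6a11 and Aqp4, which turns to 0.12 and 0.14 on FPKM as deposited.

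The genes outside the 10 whose pattern was most like theirs were named by Pearson's r over the 30 libraries of a tissue, as a description. For Gfap these were Hey1, Ptprf, Atp6v1b2, Cnn3 and Ppp1r3c in cortex-like libraries (r from 0.68 to 0.72, 11578 genes compared) and Anxa5, Rassf5, Ddr1, Tmbim1 and Lrig1 in striatum-like libraries (r from 0.78 to 0.84, 11922 genes compared). For the mean log2 level of the 10 genes they were Clu, Pcdhgc3, Sparcl1, Fads1 and Myo6 (r from 0.76 to 0.80) in cortex-like libraries, and in striatum-like libraries Sparcl1, Clic4, Sparc and Kcnj10 were among the highest (r from 0.91 to 0.95). Clu, Sparcl1, Sparc and Kcnj10 are themselves known astrocyte genes. For Slc6a11 in striatum-like libraries, chosen after its values were seen, they were Sparc, Agt, Lgi3, Vamp1 and Ret (r from 0.93 to 0.96). These r pool the labelled genotypes, and neither Slc6a11 nor Agt overlapped between KO/+ and +/+. Likeness to Slc6a11 within a labelled genotype was not tested. Sparc ran from 60.3 to 122 and Ret, a receptor of certain neurons, from 0.73 to 4.67 rescaled FPKM.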

How the data were processed

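RNA was measured in 60 libraries, made per the labels from total RNA after depletion of ribosomal RNA with a directional kit and sequenced on a NovaSeq6000. Each library has 1 deposited table, in which FPKM values stand with the lower and upper bounds of their intervals. Per the labels, bcl2fastq 2.20, Trimmomatic 0.30, TopHat2 2.0.14, SAMtools 1.3, HTSeq 0.6.1p1 and GRCm38.p4 were used; which of them made the FPKM is not given in the sources used here. The tables hold no counts, so the number of fragments was estimated from the width of those intervals.

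Of 47597 entries, 23 with a status other than OK were left out. FPKM were divided by the median ratio of each library over the 13235 entries above 0 in every library ("rescaled FPKM"). Tests used limma 3.58.1 in R 4.3.3 on log2(rescaled FPKM + 0.5), for genes with a mean of at least 0.5 over the fit, with labelled sex and labelled tissue as covariates and the labelled mouse as a block, and a Benjamini-Hochberg adjusted p under 0.05 over all genes. Fold changes on this scale understate those of low genes. Whether libraries of a group are separate mice rests on the labels, which the data contradict in part, so p-values measure the spread between these libraries. Correlations used 100000 permutations in scipy 1.17.1 and numpy 2.4.6. The fit was tested on simulated data.

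Tissue was described without a test. The members, lists and tests were chosen with earlier results of these data known. Genes named beyond the 10 were, per list and comparison, up to 5 called with the smallest adjusted p, up to 6 with the largest tissue ratio, and the 5 most like Gfap or the mean of the 10; the other called genes of a list, markers, Lcn2, Vim, Mt1 and genes like Slc6a11 were named after values were seen. The alternatives were other scalings, pseudocounts of 0.1 and 1, no filter, other covariates and blocks, all libraries of a tissue in 1 fit, labelled tissues apart, trended and robust variances, and each library left out. No protein sequence is given, and a few genes of the lists are counted but not reported by name here. In 1 case, striatum KO/+ female 3, the name of the sample and its genotype label give different lines, and the genotype label was used.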

Additional observations from a re-analysis of the deposited data

Results flagged for a closer look

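In the 8 labelled groups whose 6 libraries shared a tissue by expression, read for each of the 10 genes (80 sets of 6 values), 10 values lay far from the other 5 by Dixon's test. Chance alone marks about 1 set in 20, and the 10 values came from 6 libraries. In the library labelled cortex Δ12-line +/+ male 2, Slc1a2 was 625.3 rescaled FPKM, with the others of the group between 221 and 343, Slc1a3 was 111, with the others between 67.2 and 78.8, and Gja1 was 34.6, with the others between 17.1 and 23.1. Gfap was 73.9 in the library labelled striatum Δ12/+ female 1, with the others between 19.0 and 33.4. Slc1a3 was 103 in striatum Δ12/+ male 1, with the others between 77.6 and 86.0, and Slc6a11 was 13.5 in striatum Δ12/+ male 3, with the others between 6.56 and 9.05. That library also had the lowest Slc17a7 (104 rescaled FPKM) and the highest Drd2 (15.9) of the cortex-like libraries, and its summed striatal neuron markers were 578, beside at most 262 in the others; their part in the Slc6a11 value was not tested. In the library labelled striatum KO-line KO/+ male 1, Gfap was 64.7, with the others between 20.8 and 31.9, S100b was 26.3, with the others between 34.3 and 37.8, and Glul was 327, with the others between 361 and 372. Slc1a3 was 49.5 in the library labelled striatum KO-line +/+ female 3, with the others between 55.3 and 58.3.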

How the results depend on the processing

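The number of the 10 genes called in KO/+ was 4, and 3 to 4 without 1 library. After quantile normalization it was 5, since Slc1a2 was then called higher (0.30, adjusted p = 0.0438). With the sex-linked transcript as covariate Aldoc was called (−0.14, adjusted p = 0.0456) and Gja1 was not. Among labelled striatum libraries it was 2, and among labelled cortex libraries 1, where 14 genes in all passed instead of 1451, and 0 with the oligodendrocyte sum as a covariate, chosen after seeing the data, where 0 genes passed (1583 unadjusted). Without 1 library 1053 to 1652 genes passed in KO/+. In Δ12/+ 0 genes passed, against 1 in libraries labelled striatum, 10 in those labelled cortex and 0 to 34 without 1 library, the 34 being without striatum Δ12/+ female 3 and the next 4, 3 and 1 without striatum +/+ female 3, cortex +/+ female 2 and cortex +/+ female 3. In Δ12/Δ12 10 genes passed, against 77 after quantile normalization, 123 with the replicate number as a block, 54 with all cortex-like libraries in 1 fit and 0 to 18 without 1 library. The count of 0 among the 10 genes in both Δ12 comparisons held in all of these settings. Libraries with the same replicate number did not deviate together (mean correlations of −0.022, −0.065 and −0.0018 in the KO/+, Δ12/+ and Δ12/Δ12 comparisons), so they share only a number. With that number as a block 1134 genes passed in KO/+ and 0 in Δ12/+, and Gja1 was no longer called (adjusted p = 0.0786).

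Of all values of single genes under these settings, 465 were counted as unchanged, 29 lost the call and 2 gained it. A further 22 untested tissue ratios moved by more than 1 SD, and 25 genotype estimates changed sign. The fits without 1 library are not part of this count. A tissue ratio with overlapping ranges that changed sign was counted by its size alone, so it stands among the 465 or the 22. Estimates changed sign in some settings, and none of these passed the test. In KO/+, FPKM as deposited gave −0.015 for Slc1a2, −0.084 for Slc1a3 and −0.093 for Aldh1l1, quantile normalization 0.041 for Glul, libraries labelled cortex −0.013 for Slc1a2, −0.047 for Slc1a3 and −0.0093 for Aldh1l1, and the oligodendrocyte sum 0.068 for Gfap and −0.026 for Slc1a2. In Δ12/+, quantile normalization gave 0.68, 0.14, 0.30 and 0.28 for Slc1a2, Slc1a3, Aldoc and Glul, the sex-linked transcript as covariate −0.00065, 0.042 and 0.055 for Gfap, Slc1a2 and Glul, libraries labelled striatum 0.22 for Aldh1l1 and those labelled cortex −0.028 for Slc6a11. In Δ12/Δ12, quantile normalization gave 0.47, 0.084, 0.12 and 0.065 for Slc1a2, Slc1a3, Aldoc and Glul, libraries labelled striatum 0.11 for Aldh1l1 and −0.0054 for S100b, and those labelled cortex 0.049 for Slc1a3. Without 1 library the estimates in Δ12/+ ran from −0.056 to 0.14 for Gfap, −0.090 to 0.052 for Slc1a2 and −0.052 to 0.025 for Slc1a3, and in Δ12/Δ12 from −0.017 to 0.17 for Aqp4, −0.13 to 0.022 for Slc1a3 and −0.0011 to 0.14 for S100b.

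Between the tissues 1 of the 10 genes had ranges that did not overlap, against 5 after quantile normalization and 0 by labelled tissue, where the ratio of Slc6a11 was −0.044. The median r between the genes was 0.42 in cortex-like and 0.65 in striatum-like libraries on FPKM as deposited. The causes of these changes were not tested. The FPKM interval was widest for Aldh1l1, with a median half-width of 18.8% against 6.34% for Aqp4 at a similar level, so its width does not follow the level alone. The interval stands for a single library and does not cover the spread between libraries.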
